A study of Mus musculus with 6 samples.

Results

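The genes described here are 9 cytosolic sulfotransferases of the mouse liver: Sult1a1, Sult1d1 and Sult1e1 of the Sult1 family, Sult2a1 to Sult2a5 of the Sult2 family and Sult3a1 of the Sult3 family. They were taken by their gene names, and all 9 have a row among the 40824 genes of the deposited read count table. Nuclei of maternal hepatocytes were sequenced full-length by Smart-seq3xpress, a plate-based single-cell RNA-seq method, in wild-type C57BL/6J females mated at about 8 weeks of age. The stages were G0 and G14.5 (each named for its day of gestation) and P7L (day 7 postpartum, lactating), and each had 1 library prepared from liver tissue and 1 from perfusion, 6 libraries in all. All mice were wild type, and all livers were digested under tribromoethanol anaesthesia. No animal is named, so the p-values below measure the spread between libraries, which may be technical.

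Cytosolic sulfotransferases move a sulfonate group from the donor PAPS to a hydroxyl or amine group of a small molecule, which makes the product more soluble in water and often stops its activity. The hepatocyte is the main site of this reaction. Sult1 enzymes act on phenols, catecholamines and estrogens, Sult2 enzymes on hydroxysteroids such as dehydroepiandrosterone and on bile acids, and Sult3 enzymes on amines. In the mouse, several of these genes, Sult2a1 and Sult3a1 among them, are known for higher expression in female than in male liver.

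The libraries held 184 to 308 nuclei and 226030591 to 379767336 reads, with medians of 731494 to 1191576 reads per nucleus. All 10 hepatocyte markers had reads in every library, and together they took 1.51% to 1.83% of the reads. For the 9 lists of other cell types, the share in any single nucleus reached at most 0.202% (stellate cell and fibroblast markers in G0 perfusion). Markers at 0 in all 6 libraries were Lrat of stellate cells, Alas2 of erythroid cells, Retnlg of neutrophils and Ms4a1 of B cells. Trac of T cells and Cd79b of B cells were at 0 in 5. Other markers of the same lists had reads in every library. These were 4 or 5 of 6 stellate cell and fibroblast markers, 5 of 6 erythroid markers and 4 or 5 of 6 T and NK cell markers. For neutrophils they were 1 to 5 of 6 markers. For B and plasma cells they were 2 to 4 of the 5 that had a row. No 2 nuclei held identical counts, and no cell barcodes are given that libraries could share.

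The 5 Sult2a genes lie within chr7:13623967-14123044 of GRCm38, in the order Sult2a5, Sult2a2, Sult2a1, Sult2a4 and Sult2a3, with the first 2 on the plus strand and the other 3 on the minus strand. Their coding sequences are alike: Sult2a1 and Sult2a2 share 97.9% of 582 aligned bases, and Sult2a1 and Sult2a3 share 93.7% of 855. The first 120 coding bases are shown because they show how little separates the copies. Capitals mark the bases that differ from Sult2a1.

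Sult2a1: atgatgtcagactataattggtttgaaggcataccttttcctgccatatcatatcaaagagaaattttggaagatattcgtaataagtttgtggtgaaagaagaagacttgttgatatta
Sult2a2: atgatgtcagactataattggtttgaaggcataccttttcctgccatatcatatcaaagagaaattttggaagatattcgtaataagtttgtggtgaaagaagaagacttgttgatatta
Sult2a3: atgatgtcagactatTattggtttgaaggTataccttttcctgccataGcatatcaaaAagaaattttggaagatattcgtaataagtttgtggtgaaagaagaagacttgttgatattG
Sult2a4: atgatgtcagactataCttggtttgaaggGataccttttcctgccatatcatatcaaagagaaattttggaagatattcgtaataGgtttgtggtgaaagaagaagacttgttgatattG
Sult2a5: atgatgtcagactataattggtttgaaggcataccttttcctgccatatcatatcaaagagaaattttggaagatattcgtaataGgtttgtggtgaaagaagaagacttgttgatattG

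Sult2a2 did not differ from Sult2a1 in this stretch, while Sult2a5 differed at 2 bases, Sult2a4 at 4 and Sult2a3 at 5. A read that covers none of the bases that differ cannot be given to 1 gene. Over whole transcripts, 62.1% of the 50-base words of Sult2a2, 34.5% of Sult2a5, 33.2% of Sult2a1 and 25.5% of Sult2a4 also occurred in another gene. The values of these 4 copies are uncertain for that reason. These shares do not bound the error of a count, which was not measured and also depends on the level of the partner gene. For Sult2a3 the share was 8.36%, and at 100 bases it was 0%. Sult1d1 and Sult1e1, neighbours on the minus strand of chr5 (chr5:87554645-87569027 and chr5:87575969-87591594), shared no such word with any gene. Sult1a1 (chr7:126672865-126676432, minus strand) shared 7.36%, mostly with Gm6939, and Sult3a1 (chr10:33857721-33879532, plus strand) shared 6.15%, all with its relative Sult3a2.

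The 250 bases before the start were taken from RefSeq (GRCm38.p6), which gave an entry for 7 of the 9 genes. Those of Sult2a3, Sult2a4 and Sult2a5 are printed because these 3 genes fell together, and that of Sult3a1 because it was the 1 member that rose at G14.5. Capitals mark matches, on either strand, to any of 5 motifs searched. The motif of STAT5, the factor that carries growth hormone and prolactin signals, was TTCNNNGAA. That of nuclear receptors, a single site, was AGGTCA. The factors HNF6 and CUX2 were given the motif ATTGAT. The C/EBP family was given TTGCNNAA, and the TATA box was searched as TATAAA.

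Sult2a3, chr7:14123049-14123298, minus strand: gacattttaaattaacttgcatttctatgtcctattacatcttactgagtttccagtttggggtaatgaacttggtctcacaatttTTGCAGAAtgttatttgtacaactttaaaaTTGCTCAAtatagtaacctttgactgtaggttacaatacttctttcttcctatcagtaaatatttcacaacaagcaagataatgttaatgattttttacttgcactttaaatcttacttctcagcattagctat
Sult2a4, chr7:13989589-13989838, minus strand: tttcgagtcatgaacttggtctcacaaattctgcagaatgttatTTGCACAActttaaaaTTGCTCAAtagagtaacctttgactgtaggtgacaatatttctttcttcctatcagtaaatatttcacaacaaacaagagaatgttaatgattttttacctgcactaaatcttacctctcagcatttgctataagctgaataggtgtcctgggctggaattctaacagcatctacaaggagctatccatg
Sult2a5, chr7:13623717-13623966, plus strand: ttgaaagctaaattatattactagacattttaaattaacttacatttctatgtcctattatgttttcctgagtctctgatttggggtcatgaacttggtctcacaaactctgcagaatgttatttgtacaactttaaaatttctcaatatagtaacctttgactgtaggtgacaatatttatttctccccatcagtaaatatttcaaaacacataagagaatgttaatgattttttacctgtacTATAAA
Sult3a1, chr10:33857472-33857721, plus strand: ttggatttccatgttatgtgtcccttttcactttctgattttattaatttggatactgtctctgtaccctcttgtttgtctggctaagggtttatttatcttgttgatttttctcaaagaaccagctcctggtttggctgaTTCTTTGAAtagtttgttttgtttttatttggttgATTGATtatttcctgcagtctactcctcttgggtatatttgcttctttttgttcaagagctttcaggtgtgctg

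Sult2a3 and Sult2a4 were identical at 92.7% of 192 aligned bases, Sult2a4 and Sult2a5 at 91.8% of 171, and Sult2a3 and Sult2a5 at 88.1% of 227. Sult2a3 and Sult2a4 each held 2 matches to TTGCNNAA, which 9.56% of 32851 RefSeq promoters held at least once. Sult2a5 ended on TATAAA, found in 12.4% of promoters. Sult3a1 held TTCNNNGAA, found in 7.02%, and ATTGAT, found in 6.72%. Among the promoters not printed, Sult1e1 held AGGTCA (14.0% of promoters), and Sult1a1 and Sult1d1 held none of the 5. No match overlapped another. A match is a run of letters and was not tested as a binding site.

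Between G0 and G14.5, 6 of the 9 genes fell and 1 rose (adjusted p under 0.05, edgeR quasi-likelihood test with Benjamini-Hochberg adjustment over 15015 genes). Of all genes tested, 11.9% were called in this comparison. The genes that fell were Sult1a1, Sult1d1, Sult1e1, Sult2a3, Sult2a4 and Sult2a5, and the gene that rose was Sult3a1. The median log2 fold change of the 9 was -2.07, against -0.01 over all genes tested. Levels of libraries below are normalised read counts in CPM (counts scaled to TMM-adjusted library size), with the liver tissue library first and the perfusion library second. CPM of single nuclei and of groups of nuclei are scaled to total reads without TMM, whose factors ran from 0.909 to 1.08 over the libraries. Fold changes are log2 with their standard error (SE).

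**Figure D1:**
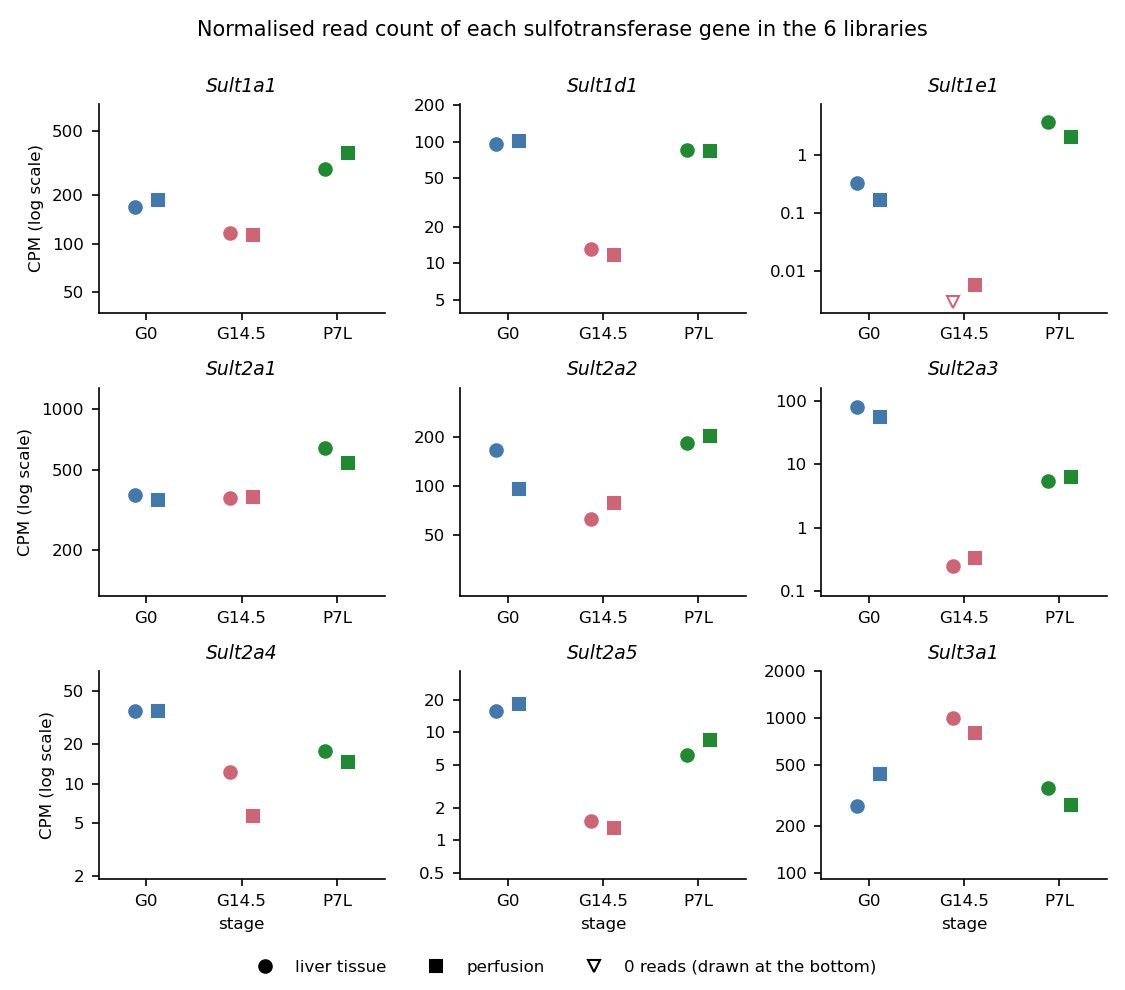
Normalised read count (CPM, log axis, a separate range for each gene) of the 9 genes by stage, with 1 point for each library and no mean drawn. Sult1d1 and Sult2a3 have both G14.5 libraries far below the other stages, and Sult3a1 has them above. The open triangle marks a library with 0 reads.

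Sult1a1, the main phenol sulfotransferase of the liver, stood at 169 and 186 CPM at G0, then 117 and 112 at G14.5, then 287 and 363 at P7L. The 3 stages did not overlap. It fell by 0.63 ± 0.15 (SE, 2 libraries per stage) from G0 to G14.5 (edgeR adjusted p = 0.035) and rose by 1.5 ± 0.15 from G14.5 to P7L (edgeR adjusted p = 0.00172). At P7L it was 0.87 ± 0.15 above G0 (edgeR adjusted p = 0.0317). The call at G14.5 was near the threshold: it ended with limma-voom (adjusted p = 0.0507), with both looser filters and without any single library other than G0 perfusion, the largest p being 0.214 without G14.5 perfusion. The call at P7L against G0 ended without either P7L library (edgeR adjusted p = 0.117 without liver tissue and 0.328 without perfusion), with filterByExpr alone (0.0719) and with limma on the deposited values (0.0869 at a pseudocount of 1 and 0.0544 at 0.1).

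Sult1d1, which sulfonates dopamine and other catecholamines, had 95.6 and 102 CPM at G0, then 13.1 and 11.7 at G14.5, then 85.5 and 84.2 at P7L. Both G14.5 libraries lay far below the other 4. It fell by 2.99 ± 0.19 from G0 to G14.5 (7.95-fold; edgeR adjusted p = 0.000316) and rose by 2.77 ± 0.19 from G14.5 to P7L (6.83-fold; edgeR adjusted p = 0.000407). P7L against G0 gave -0.22 ± 0.18 (edgeR adjusted p = 0.513).

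Sult1e1, the estrogen sulfotransferase, had the lowest level of the 9 genes. Its reads numbered 76 and 42 at G0, then 0 and 2 at G14.5, then 1059 and 707 at P7L, which is 0.34 and 0.17, 0 and 0.01, and 3.79 and 2.06 CPM. It passed the filter on low counts only through the P7L libraries, so its P7L values had to be high. In liver tissue the G0 level was at least 28.0-fold that of G14.5 on the CPM scale (floor of 3 reads in the G14.5 library), and in perfusion it was 28.8-fold (95% counting interval 7.49 to 246). P7L exceeded G14.5 at least 317-fold in liver tissue and 355-fold (97.8 to 2933) in perfusion, and exceeded G0 by 11.3-fold (8.94 to 14.4) and 12.3-fold (9.01 to 17.2). These intervals cover counting error only, and reads are not independent molecules: 1 nucleus gave 63.2% of the reads in G0 liver tissue and 73.8% in G0 perfusion. The fall at G14.5 (edgeR adjusted p = 0.0165) lost its call without G14.5 liver tissue (0.0726), with thinned nuclei (0.055) and with limma on the deposited values (0.429 at a pseudocount of 1 and 0.125 at 0.1). The comparisons with P7L are given as values only, since the filter let the gene in through its P7L level.

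Sult2a3 showed the steepest fall among the 9 genes in the edgeR fit. It had 81.3 and 55.4 CPM at G0, then 0.25 and 0.33 at G14.5, then 5.42 and 6.24 at P7L, in 6 libraries whose stages did not overlap. These values rest on 18429 and 13936 reads at G0 and on 63 and 114 at G14.5. The log2 fold change from G0 to G14.5 was -7.87 ± 0.41 (234-fold; edgeR adjusted p = 0.000132). It rose by 4.32 ± 0.35 from G14.5 to P7L (edgeR adjusted p = 0.000764), yet stayed 3.55 ± 0.33 below G0 (11.7-fold; edgeR adjusted p = 0.00543). All 3 calls held under each of the 18 alternatives run.

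Sult2a5 had 15.6 and 18.3 CPM at G0, then 1.5 and 1.30 at G14.5, then 6.16 and 8.43 at P7L. The nucleus with the most reads of Sult2a5 gave 32.4% and 28.2% of them at G0, then 77.7% and 25.2% at G14.5, then 14.0% and 33.0% at P7L. The stages did not overlap, with P7L between the other 2. It fell by 3.59 ± 0.40 from G0 to G14.5 (12-fold; edgeR adjusted p = 0.00267) and rose by 2.36 ± 0.38 from G14.5 to P7L (5.15-fold; edgeR adjusted p = 0.0104). The rise ended without G14.5 perfusion (adjusted p = 0.0723) and without P7L perfusion (0.105). P7L against G0 gave -1.22 ± 0.36 (edgeR adjusted p = 0.118) and was called lower with DESeq2 (0.00335).

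Sult2a4 had 35.5 and 35.4 CPM at G0, then 12.3 and 5.63 at G14.5, then 17.5 and 14 at P7L, so that the G0 libraries were highest and both preparations were lowest at G14.5. It fell by 2.07 ± 0.35 from G0 to G14.5 (4.21-fold; edgeR adjusted p = 0.0123), a call that ended without G14.5 perfusion (0.0607). Neither of the other comparisons was called: P7L against G14.5 gave 0.90 ± 0.34 (edgeR adjusted p = 0.159) and P7L against G0 gave -1.17 ± 0.34 (0.110). DESeq2 called both (adjusted p = 0.0409 and 0.0065). The nucleus with the most reads of Sult2a4 gave 11.4% and 18.4% of them at G0. Its share was 15.3% and 31.0% at G14.5, then 18.9% and 14.6% at P7L.

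Sult2a1, the hydroxysteroid and bile acid sulfotransferase with the highest level per length of the 5 copies, had 375 and 353 CPM at G0, then 363 and 365 at G14.5, then 637 and 540 at P7L. The G14.5 values lay between those of G0. G14.5 against G0 gave 0.00 ± 0.12 (edgeR adjusted p = 0.993). At P7L it rose by 0.69 ± 0.12 over both G0 (1.61-fold; edgeR adjusted p = 0.0347) and G14.5 (1.61-fold; 0.0148). Without P7L liver tissue neither rise was called (adjusted p = 0.296 and 0.216), nor without P7L perfusion (0.218 and 0.0977). The rise over G0 was also lost without G0 liver tissue (0.0502), and that over G14.5 without G14.5 liver tissue (0.126). With filterByExpr alone (0.0719), without a filter (0.0525) and with limma on the deposited values (0.0946 and 0.0551) the rise over G0 was not called either.

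Sult2a2, the copy with the most shared sequence, had 168 and 96.3 CPM at G0, then 62.6 and 79.0 at G14.5, then 185 and 203 at P7L. The G0 libraries differed more from each other than those of the other stages. G14.5 against G0 gave -0.88 ± 0.27 (edgeR adjusted p = 0.0785) and was called in 6 of 18 alternatives, DESeq2 (0.0194) and the fit without G0 perfusion (0.0035) among them. It rose by 1.45 ± 0.27 from G14.5 to P7L (2.73-fold; edgeR adjusted p = 0.0189), which ended without G14.5 liver tissue (0.112) and without P7L perfusion (0.149). P7L against G0 gave 0.57 ± 0.27 (edgeR adjusted p = 0.275), and without G0 liver tissue it gave 1.12 (0.0289).

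Sult3a1, the amine sulfotransferase, had 272 and 433 CPM at G0, then 1005 and 796 at G14.5, then 351 and 273 at P7L. Both G14.5 libraries exceeded the other 4, and G0 and P7L overlapped. It rose by 1.35 ± 0.25 from G0 to G14.5 (2.55-fold; edgeR adjusted p = 0.0174) and fell by 1.53 ± 0.25 from G14.5 to P7L (2.88-fold; edgeR adjusted p = 0.0121). Without G14.5 liver tissue neither was called (adjusted p = 0.0924 and 0.0816), and the fall was also lost without P7L perfusion (0.0755). With limma on the deposited values at a pseudocount of 1 the adjusted p was 0.0938 for the rise and 0.0577 for the fall, and at 0.1 the rise was not called either (0.0572). P7L against G0 gave -0.18 ± 0.25 (edgeR adjusted p = 0.721), and without G0 liver tissue it gave -0.67 (0.035).

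**Figure D2:**
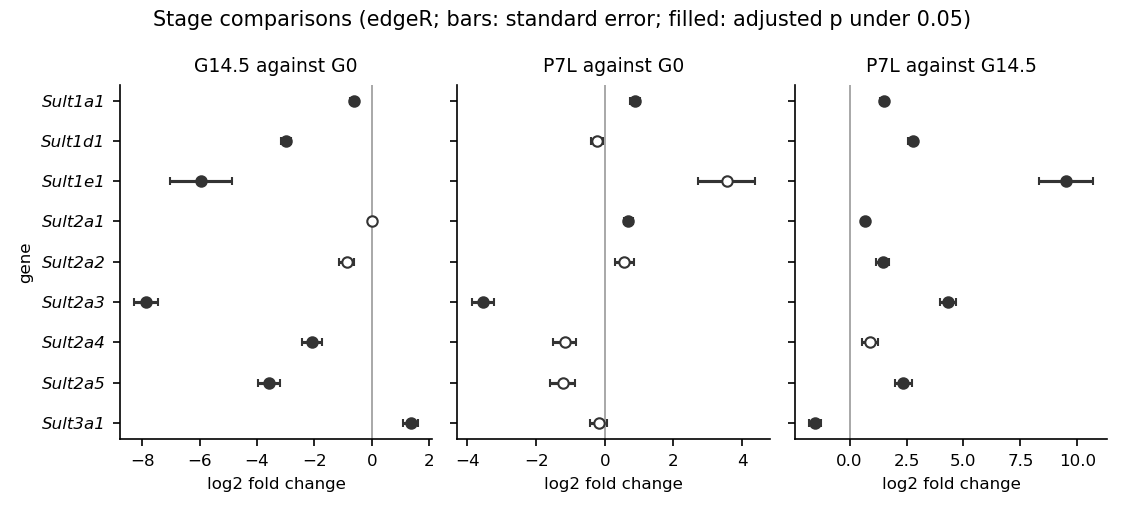
Log2 fold change of each gene in the 3 stage comparisons (points: edgeR estimate; bars: standard error; filled: adjusted p under 0.05). From G0 to G14.5, 6 genes lie below 0 and are called, and the fitted values of Sult1e1 depend on the prior count since G14.5 held 0 and 2 of its reads.

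From G14.5 to P7L, 8 of the 9 genes were called, 7 higher and 1 lower, where 9.26% of all genes tested were called. Sult2a4 was the gene that was not. Sult1e1 is among the 7, and without it, since it was tested only through its P7L level, 7 of 8 were called, 6 higher and 1 lower. P7L against G0 gave 3 calls, Sult1a1 and Sult2a1 higher and Sult2a3 lower, where 2.92% of all genes tested were called. The median log2 fold change of the 9 was 1.5 in the first of these and -0.18 in the second, against 0.00 and 0.01 over all genes tested. With Sult1e1 set to its bound the 3 medians were the same, which had to be so because the gene stayed on the same side of each. Without Sult1e1, the median for G14.5 against G0 would lie between the values of Sult2a4 (-2.07) and Sult2a2 (-0.88). The 3 comparisons share libraries, so a low G14.5 value enters 2 of them. Between perfusion and liver tissue, 0 of the 9 genes and 0 of all genes tested were called with edgeR, and 707 genes had an unadjusted p under 0.05. DESeq2 and limma-voom also called 0 of the 9 there.

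The smaller copies took a changing part of the Sult2a reads, which is described here without a test. The 5 genes summed to 675 and 558 CPM at G0, then 439 and 451 at G14.5, then 851 and 772 at P7L. Sult2a3, Sult2a4 and Sult2a5 took 19.6% and 19.5% of these reads at G0, then 3.19% and 1.61% at G14.5, then 3.42% and 3.77% at P7L. Their part was thus lower at P7L than at G0 in both preparations, at a P7L total above that of G0. Sult2a1 took 55.5% and 63.2% at G0, then 82.6% and 80.9% at G14.5, then 74.9% and 69.9% at P7L.

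**Figure D3:**
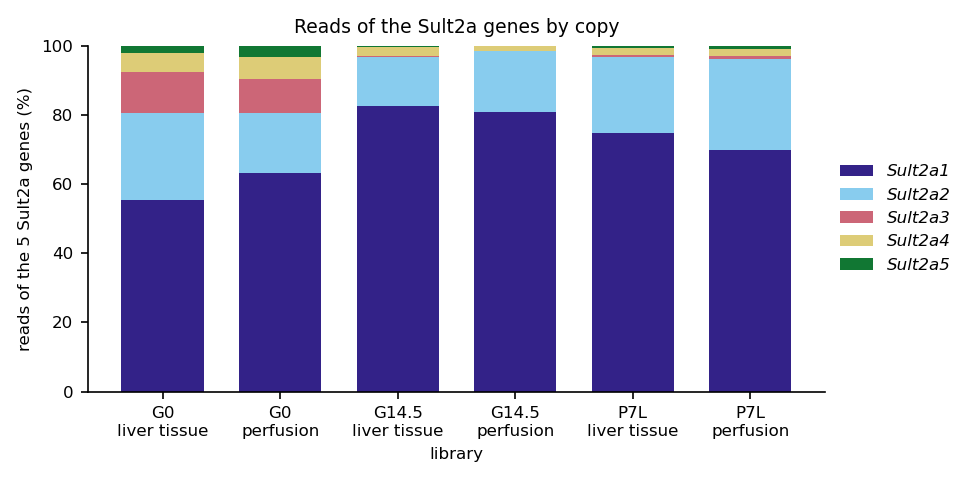
Share of the reads of the 5 Sult2a genes (percent, stacked bars) taken by each copy in the 6 libraries. The part of Sult2a3, Sult2a4 and Sult2a5 together goes from 19.6% and 19.5% at G0 to 3.19% and 1.61% at G14.5, then 3.42% and 3.77% at P7L.

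Genes can be compared with each other only per length, for which the mean over nuclei of the authors' length-scaled values was used (100000 in total per nucleus by their scaling). At G0, Sult3a1 (99.7 and 136) and Sult2a1 (90.9 and 104) stood highest on this scale, and their ranges overlapped. Sult2a2 (60.4 and 42.9) and Sult1a1 (44.1 and 42.7) followed and also overlapped, then Sult2a3 (19.2 and 19.4). Sult1d1 (13.9 and 10.8) and Sult2a4 (9.06 and 14.2) could not be ordered. Sult2a5 (3.61 and 4.98) and Sult1e1 (0.09 and 0.05) were lowest. At G14.5, Sult3a1 reached 301 and 193, above Sult2a1 at 98.7 and 91.0 in both libraries, and Sult2a2 (24.6 and 29.5) and Sult1a1 (25.1 and 25) overlapped below them. At P7L the order of the first 2 was the other way round: Sult2a1 stood at 175 and 151, and Sult3a1 at 105 and 77.2, overlapping Sult1a1 at 67.8 and 83.5. Of the summed length-scaled level of the 9 genes, Sult3a1 made up 29.2% and 36.3% at G0, then 66.2% and 56.5% at G14.5, then 23.5% and 19.0% at P7L.

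Within libraries the genes differed in how many nuclei held their reads. No cell type that should lack these genes was sequenced, so the background share is unknown. With every nucleus thinned to 250000 reads (35 shallower nuclei left out), at least 1 read of Sult1a1 was found in 94.0% to 100% of nuclei in the 6 libraries, and of Sult2a1 in 91.7% to 98.3%. Sult2a3 reads were in 47.7% and 49.7% of nuclei at G0, then 3.12% and 6.00% at G14.5, then 21.4% and 22.6% at P7L. Sult1d1 went from 83.5% and 80.7% at G0 to 32.1% and 32.0% at G14.5, with 91.8% and 94.6% at P7L. Sult1e1 was found in 1.69% and 0.55% at G0, in 7.48% and 8.45% at P7L, and at G14.5 in 0 of 224 nuclei of liver tissue, which allows a share of up to 1.34% by the floor of 3 (exact Clopper-Pearson upper limit 1.63%), and in 0.33% of perfusion. The other genes are in the plot of shares of nuclei with a read.

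**Figure D4:**
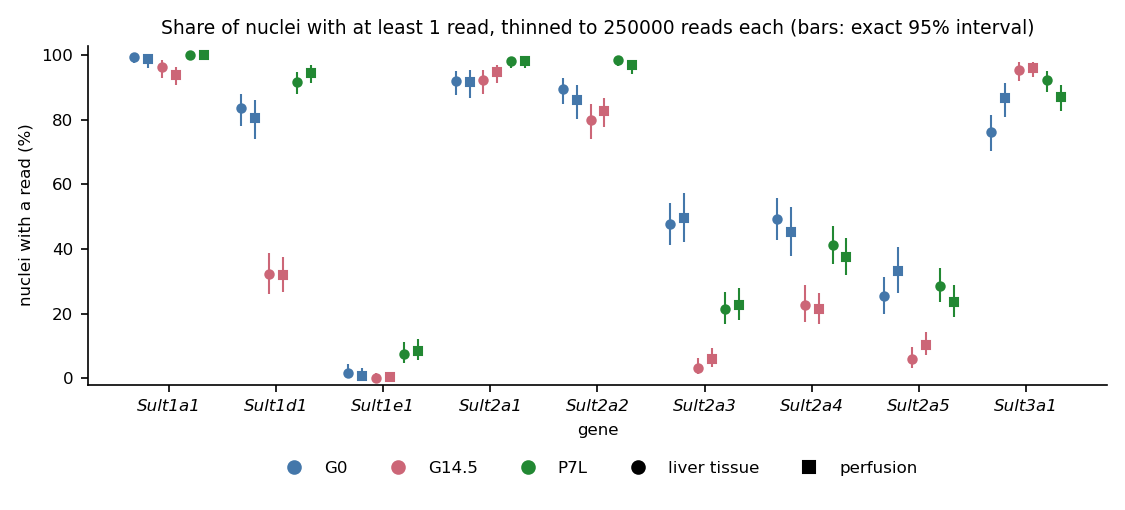
Share of nuclei with at least 1 read of each gene (percent) in the 6 libraries, each nucleus thinned to 250000 reads (bars: exact Clopper-Pearson 95% interval over nuclei, counting error only). Sult1a1 stays at 94.0% or more. All genes except Sult2a1 and Sult3a1 have their lowest shares at G14.5 in both preparations.

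The reads of a gene were also spread unevenly over the nuclei that held it. The 10% of nuclei with the most reads of Sult1a1 gave 28.1% to 36.9% of its reads, whereas for Sult2a5 they gave 88% to 95.7%. The median nucleus had 138 and 130 CPM of Sult1a1 at G0, then 77.9 and 69.2 at G14.5, then 290 and 341 at P7L. For Sult1d1 it had 21.5 and 20.5 at G0, 0 at G14.5 in both libraries, then 55.3 and 55.7 at P7L. So while the summed level of Sult1d1 at P7L was at or under that of G0 in both preparations, its median nucleus was above it, and its top 10% of nuclei gave 60.5% and 69.0% of the reads at G0 against 43.2% and 39.3% at P7L. This difference between stages in spread was not tested.

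Across the nuclei of a library, Spearman correlations of CPM between members were mostly weak. The highest medians over the 6 libraries were those of Sult2a1 with Sult2a2 (0.37, range 0.20 to 0.48), Sult2a1 with Sult2a4 (0.33, 0.26 to 0.41) and Sult2a2 with Sult2a5 (0.33, 0.17 to 0.42), over 184 to 308 nuclei each. These copies share sequence, and nuclei share library and depth. Correlations with the total reads of the nucleus had medians of 0.09 for Sult2a1, 0.06 for Sult2a2, 0.25 for Sult2a4 and 0.14 for Sult2a5. For Sult2a3 the median was 0.18. Each of these was highest in G0 liver tissue, where Sult2a3 reached 0.50. Sult1a1 with Sult1d1 had a median of 0.06.

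Position in the liver lobule was read from a zonation index, the reads of 17 pericentral genes as a share of the reads of these and 18 periportal genes, none of them a member. The nuclei of each library were ranked by the index and split into 3 equal groups, periportal, intermediate and pericentral, and the reads of the first and the last group were summed and compared with the library as a block. Sult3a1 was the 1 member of 9 that was called, where 3.55% of 14939 genes tested were called. It was 5.41 ± 0.20 (log2, 42.5-fold) higher in the pericentral group (edgeR adjusted p = 1.57e-07). In CPM of the summed nuclei it stood at 10.4 and 20.8 in the periportal and 576 and 966 in the pericentral group at G0, 45.7 and 58.0 against 2301 and 1822 at G14.5, and 32.6 and 11.2 against 806 and 710 at P7L. The pericentral group was above the periportal one in 6 of 6 libraries, and both groups had their highest levels at G14.5 in both preparations. The intermediate group did so in liver tissue only, with 266 CPM at G0, 573 at G14.5 and 324 at P7L. In perfusion it had 269 CPM at G0, 214 at G14.5 and 104 at P7L. The groups were cut within each library, so they do not hold the same index values: the median index of the pericentral group was 0.416 and 0.475 at G0, then 0.746 and 0.550 at G14.5, then 0.379 and 0.305 at P7L. The part of this shift in the higher G14.5 level was not tested. Within single stages the difference was 5.63 ± 0.36 at G0, 5.30 ± 0.35 at G14.5 and 5.29 ± 0.36 at P7L (edgeR adjusted p = 0.000686, 0.000624 and 0.000827). The differences between stages were not called, with -0.33 ± 0.42 for G14.5 minus G0 (edgeR adjusted p = 0.907). The median index was 0.208 and 0.216 at G0, then 0.222 and 0.117 at G14.5, then 0.156 and 0.0824 at P7L.

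**Figure D5:**
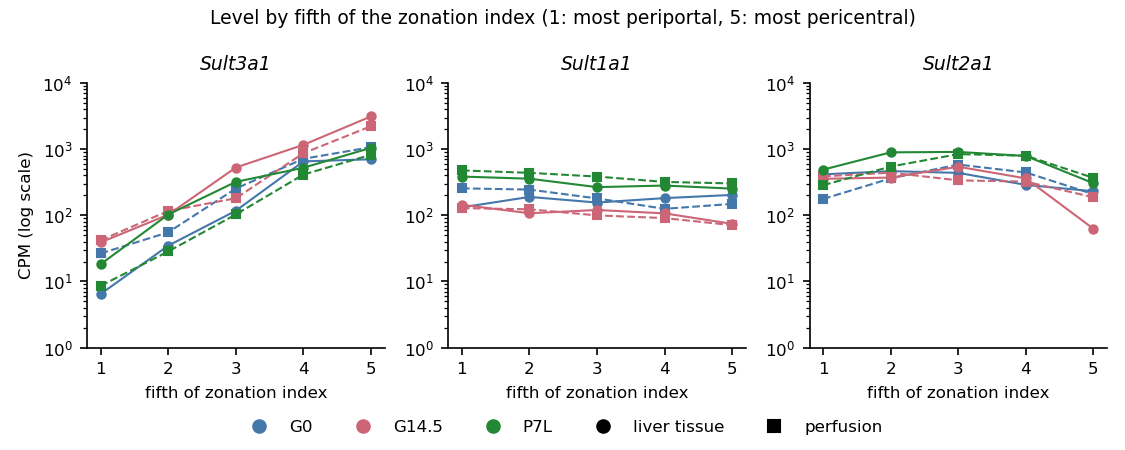
Level of 3 genes (CPM, log axis) in 5 equal groups of nuclei ranked by zonation index in each library, from the most periportal (1) to the most pericentral (5) nuclei. Sult3a1 goes up at every step in all 6 libraries, and Sult1a1 has a lower value in group 5 than in group 1 in 5 of 6 libraries.

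None of the other 8 genes was called between these groups. Sult1a1 gave -0.55 ± 0.16 (edgeR adjusted p = 0.105), with the periportal group above the pericentral one in 5 of 6 libraries, and was called with the alternative index genes (0.0371) and without G0 liver tissue (0.0138). Sult2a1 gave -0.22 ± 0.20 (edgeR adjusted p = 0.730), and its intermediate group was above both others in 5 of 6 libraries, for example 921 CPM against 570 in the periportal and 549 in the pericentral group of P7L liver tissue. The intermediate group was not part of the test. Sult2a3 gave 1.02 ± 0.58 (edgeR adjusted p = 0.511). Its pericentral group was above the periportal one at G0 (104 against 41.1 and 66.3 against 11.0) and P7L (8.24 against 1.85 and 7.77 against 2.38). The order was reversed at G14.5 (0.11 against 0.26 and 0.14 against 0.46), on 9 to 59 reads a group. The difference of -3.45 ± 0.68 between G14.5 and G0 was not called (edgeR adjusted p = 0.414). Sult1d1 and Sult2a2 also had the pericentral group above at G0 and P7L and below at G14.5 in both preparations. Their differences between G14.5 and G0 were -2.13 ± 0.67 and -2.01 ± 0.57, also not called (edgeR adjusted p = 0.537 and 0.498).

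Of 12 other cytosolic sulfotransferases, 7 could be tested and 3 were called from G0 to G14.5 (42.9%, against 11.9% of all genes), all higher. Sult4a1, an orphan member known from brain, had 0.07 and 0.06 CPM at G0, against 62.4 and 73.6 at G14.5, then 1.10 and 2.52 at P7L. It rose by 10.02 ± 0.51 at G14.5 (edgeR adjusted p = 0.000132) and fell by 5.31 ± 0.40 from there to P7L (0.000627). Sult2a8, listed as 2810007J24Rik, rose by 1.09 ± 0.15 (edgeR adjusted p = 0.00589), from 212 and 214 CPM to 489 and 423, against the direction of Sult2a3 to Sult2a5. Sult3a2, the neighbour of Sult3a1 on chr10 and listed as Gm4794, rose by 3.44 ± 0.88 (edgeR adjusted p = 0.0481), from 1.5 and 11.4 CPM to 61.2 and 59.9, and was called in 12 of 18 alternatives. From G14.5 to P7L Sult4a1 was the 1 of 7 called, lower. In P7L against G0 it was again the 1 of 7 called, higher (4.71 ± 0.44, edgeR adjusted p = 0.00543). Each count is 14.3% of the list, against 9.26% and 2.92% of all genes tested. The median log2 fold changes of the 7 were 0.13, -0.39 and 0.70 for G14.5 against G0, P7L against G14.5 and P7L against G0.

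Of 21 tested genes that supply sulfate and the donor PAPS, 2 were called from G0 to G14.5 (9.52%, against 11.9% of all genes) and 2 from G0 to P7L (9.52%, against 2.92%), all lower, and 5 from G14.5 to P7L (23.8%, against 9.26%), 2 higher and 3 lower. Papss2, which makes PAPS and is named here outside the rule for named genes, was called in no stage comparison and stood at 509 to 683 CPM over the 6 libraries. Cdo1, cysteine dioxygenase, had 1210 and 1199 CPM at G0, then 1400 and 1423 at G14.5, then 609 and 805 at P7L and fell by 1.01 ± 0.13 from G14.5 to P7L (edgeR adjusted p = 0.00516). Cbs, cystathionine beta-synthase, fell by 1.78 ± 0.21 in the same comparison (edgeR adjusted p = 0.00294), from 149 and 215 CPM to 55.3 and 49.9. Slc13a1, a sulfate carrier, had 0.30 and 0.50 CPM at G0, then 0.13 and 0.14 at G14.5, then 6.41 and 3.26 at P7L. A gene this low may have passed the filter through its P7L level, so only its values are given. It was 1 of the 2 called higher from G14.5 to P7L. Cth, the next enzyme on the way to cysteine, rose by 0.89 ± 0.12 there (edgeR adjusted p = 0.00598). Got1, which also metabolises cysteine sulfinate, fell by 0.74 ± 0.14 from G0 to G14.5 (edgeR adjusted p = 0.0179). The medians of the 21 were 0.17, -0.17 and -0.04 in the same 3 comparisons, taken as G14.5 with G0, P7L with G0 and P7L with G14.5.

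Of the enzymes that remove sulfate, 1 of 11 sulfatases and activators was called from G0 to G14.5 and from G14.5 to P7L, and 0 from G0 to P7L, a share of 9.09% where 11.9% and 9.26% of all genes were called. That gene was Arsg, a lysosomal sulfatase, at 38.5 and 45.9 CPM at G0, then 196 and 230 at G14.5, then 32.1 and 36.4 at P7L. It rose by 2.34 ± 0.16 at G14.5 (edgeR adjusted p = 0.000392). Of 22 Golgi sulfotransferases, which act on sugars and proteins, 1 was called in each of the same 2 comparisons (4.55%, under the share of all genes), Ust, at 1.19 and 1.70 CPM at G0, then 5.60 and 8.07 at G14.5, then 1.27 and 1.12 at P7L. Its rise of 2.24 ± 0.53 (edgeR adjusted p = 0.0361) was called in 6 of 17 alternatives.

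Of 21 tested receptors and regulators that are known to act on Sult genes, 4 were called from G0 to G14.5 (1 higher, 3 lower), 4 from G0 to P7L (1 higher, 3 lower) and 9 from G14.5 to P7L (4 higher, 5 lower). These are 19.0%, 19.0% and 42.9% of the list, against 11.9%, 2.92% and 9.26% of all genes tested. Nr1i3, the receptor CAR, had 72.3 and 77.3 CPM at G0, then 57.6 and 47.4 at G14.5, then 160 and 171 at P7L and rose by 1.66 ± 0.18 from G14.5 to P7L (edgeR adjusted p = 0.00216). Esr1, an estrogen receptor, fell by 1.16 ± 0.13 in that comparison (edgeR adjusted p = 0.00255) and Cux2, a female-specific repressor in mouse liver, by 1.68 ± 0.21 (0.00368). Nr1i2, the receptor PXR, fell by 0.70 ± 0.16 from G0 to G14.5 (edgeR adjusted p = 0.0315), a call that held in 11 of 18 alternatives. The medians of the 21 were -0.25, -0.33 and -0.09 for the comparisons of G14.5 with G0, of P7L with G0 and of P7L with G14.5.

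Sex-biased genes of the liver were called in both directions. Of 30 female-biased genes tested, 13 were called from G0 to G14.5 (5 higher, 8 lower), 13 from G0 to P7L (1 higher, 12 lower) and 13 from G14.5 to P7L (3 higher, 10 lower), each 43.3% of the list. Cyp2b13, a female-specific cytochrome P450, fell by 2.71 ± 0.17 at G14.5 (edgeR adjusted p = 0.000316), from 169 and 259 CPM to 25.4 and 39.8. Cyp2c69, another, had 430 and 377 CPM at G0, then 314 and 275 at G14.5, then 27.4 and 25.9 at P7L and fell by 3.92 ± 0.14 from G0 to P7L (edgeR adjusted p = 0.000196). Of 19 male-biased genes, 7 were called at G14.5 (6 higher, 1 lower), 4 from G0 to P7L (4 higher) and 3 from G14.5 to P7L (1 higher, 2 lower), which are 36.8%, 21.1% and 15.8% of the list against 11.9%, 2.92% and 9.26% of all genes tested. Serpina1e, a male-biased serpin, had 12.4 and 14.4 CPM at G0, then 685 and 527 at G14.5, then 31.4 and 24.4 at P7L and rose by 5.48 ± 0.22 at G14.5 (edgeR adjusted p = 4.52e-05). Prlr, the prolactin receptor, a female-biased gene, rose by 2.86 ± 0.16 at G14.5 (edgeR adjusted p = 0.000176) and fell by 4.34 ± 0.17 from there to P7L (5.51e-05). The medians were -0.20, -0.79 and -0.35 for the female-biased and 0.01, -0.08 and -0.19 for the male-biased genes, for the comparisons of G14.5 with G0, of P7L with G0 and of P7L with G14.5. Between preparations, edgeR called 0 genes of each of the 7 lists.

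For each member the 3 genes with the most alike profile were found by the root mean square difference of log2(CPM + 1), centred over the 6 libraries. For Sult1a1 these were Slc10a1, the bile acid uptake carrier (0.07), Tdo2 (0.10) and Il17rb (0.13). For Sult1d1 they were Slco1a4, an organic anion uptake carrier (0.17), at 430 and 466 CPM at G0, then 57.2 and 50.5 at G14.5, then 460 and 473 at P7L, then Pcp4l1 (0.19) and Prodh (0.25). For Sult2a5 the first was Cyp2a22 (0.13), and for Sult2a4 it was Lepr, the leptin receptor (0.24). The closest to Sult2a3 was Ildr2, at a larger distance of 0.79, with 197 and 138 CPM at G0, then 11.0 and 10.2 at G14.5, then 39.8 and 36.4 at P7L. For Sult3a1 they were Enho (0.13), Syt1 (0.13) and Sass6 (0.17), and for Sult2a2 Sardh (0.09), Retsat (0.10) and Sdhb (0.11). For Sult1e1 they were Tbc1d30 (0.17), the sulfate carrier Slc13a1 (0.22) and Rhebl1 (0.24). For low genes such as these, and for Sult2a1, whose closest were Numbl and Tnfrsf23 at under 1 CPM, the added 1 makes most profiles flat, so likeness there says little.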

How the data were processed

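The authors deposited raw read counts per gene for 1567 nuclei. The submitters' processing notes name the build GRCm38 (mm10) and 3 tools, featureCounts 1.5.3, Trimmomatic 0.39 and HISAT2 2.1.0. The use of strand, the treatment of reads that match several genes and any removal of nuclei are not given in the sources used here. The titles speak of nuclei, while the protocol in the labels speaks of single hepatocytes. A deposited table of TPM values, length-scaled by the authors to 100000 per nucleus with Alb, Apoa2 and Fabp1 outside the sum as far as the values show, gave levels per length. The 92 spike-in rows held 0 reads.

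Counts were summed per library and fitted with edgeR 4.0.16 (quasi-likelihood, robust, TMM; stage and preparation as terms) in R 4.3.3. Genes entered the test when they passed filterByExpr and had a read in 5% of nuclei of at least 2 libraries. Each stage and preparation had 1 library, so 2 residual degrees of freedom remained (median prior 5.13), and the threshold was an adjusted p of 0.05, two-sided. Zones were compared in 12 sums of nuclei with the library as a block. Alternatives used DESeq2 1.42.0, limma 3.58.1, other scalings and filters, thinned nuclei and leaving out each library. The fits were tested on simulated counts. Genes named were the 9 members, up to 3 genes with the smallest p per list and comparison, from which examples are given, and the 3 most alike genes per member; Papss2 was added after its values were seen. The members, lists and tests were chosen with earlier results of these data known.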

Additional observations from a re-analysis of the deposited data

How the results depend on the processing

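No direction of a called gene reversed under the alternatives run. Of the 9 genes, 7 were called from G0 to G14.5, with 4 to 8 when single libraries were left out. P7L against G0 gave 3, with 1 to 4 when single libraries were left out, 1 with filterByExpr alone, 6 with DESeq2 and 1 with limma on the deposited values (pseudocount 1). P7L against G14.5 gave 8, with 3 to 8 when single libraries were left out. Between the periportal and pericentral groups 1 was called, with 2 under the alternative index genes and 1 to 2 when single libraries were left out. The number shared by libraries of different stages is their preparation, which the fit holds as a term: without this replicate block the counts were 7, 3 and 8. Deviations from the stage means correlated across 15015 genes at 0.01 between G0 and G14.5, 0.00 between G0 and P7L and 0.11 between G14.5 and P7L. Replicate number and preparation coincide here, so these values cannot show whether libraries were paired in any way beyond their preparation. Over the stage comparisons 424 of 477 values of single members kept their side of the threshold, 38 lost a call and 15 gained one. Sult1d1 and Sult2a3 kept each call they had in all 18 alternatives. Without thinning, 42 of 54 shares of nuclei left their interval, and 50 of 54 did so when 5 reads were required. With 2 libraries a stage and 1 for each preparation, a library left out leaves a stage with a single library, assumed to vary like the others.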
